A study of Mus musculus with 16 samples.

Results

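The mitochondrial protein import machinery was taken as the genes whose symbols begin with Tomm or Timm and a digit, together with 12 named genes of the import motor, the outer membrane sorting complex, the intermembrane space relay and the processing peptidase. Of the 54393 genes in the count table, 38 matched these symbols. A filter of at least 1 CPM (counts scaled to the library's total) in at least 4 of the 16 libraries kept 35 of them and 13234 genes in all. The 3 that did not pass were *Tomm6os*, an antisense transcript with 1 to 8 counts per library, and *Tomm20l* and *Timm8a2*, with 0 or 1 count per library. Of the 35 that passed, *Dnajc15* had the fewest counts, 246 to 495 per library, and it was over 1 CPM in 16 libraries.

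Nearly all mitochondrial proteins are encoded in the nucleus, made in the cytosol and carried into the organelle through this machinery. The TOM complex is the entry gate of the outer membrane, and the SAM complex folds barrel-shaped proteins into that membrane. In the intermembrane space, small TIM chaperones and the MIA relay receive small and hydrophobic proteins, while the TIM22 and TIM23 translocases of the inner membrane handle carrier proteins and proteins with a cleavable presequence. The PAM motor, built around the chaperone encoded by *Hspa9*, pulls presequence proteins into the matrix, where the processing peptidase cuts the presequence off. Doxycycline is an antibiotic of the tetracycline class that binds bacterial ribosomes and can also inhibit translation by the ribosomes inside mitochondria.

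The cells were mIMCD3, a mouse line of inner medullary collecting duct origin whose donor animal carried an SV40 T antigen transgene, which every group therefore shared. They were grown for 10 days on permeable filters and then given the vehicle DMSO or 2 µg/mL doxycycline (DOX), with media changed daily. The 4 groups were DMSO for 3 days, DOX for 3 days, DMSO for 6 days and DOX for 6 days, with 4 replicates each. Polyadenylated RNA was sequenced from directional libraries. The labels do not say whether replicates came from separate cultures, so p-values measure the spread between these samples, which may be technical.

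Total counts per library ran from 16933343 to 23960859, and replicates of a group correlated at 0.981 to 0.992. All 9 epithelial marker genes were tested, and their summed level was 1679 to 2768 TPM (a unit that divides counts by transcript length before scaling to the library's total). Of 7 markers of the collecting duct, 2 (*Aqp3* and *Gata3*) passed the filter, and *Aqp2*, the vasopressin-regulated water channel that defines principal cells, averaged 0.151 TPM over all libraries. Markers of other cell types were at or near 0 in summed TPM for fibroblasts (0.07 to 1.15), endothelium (0.449 to 1.13) and intercalated cells (0.047 to 0.61), and of the 3 leukocyte genes *Ptprc* and *Adgre1* averaged 0.151 and 0.0045 TPM, while *Cd68* averaged 16.02 TPM. The summed leukocyte level, nearly all *Cd68*, was 7.81 to 10.4 against 17.2 to 21.9 TPM (DOX against DMSO) at 3 days and 11.3 to 12.6 against 22.6 to 24.6 TPM at 6 days. The summed epithelial level was lower in DOX, 1679 to 2012 against 2286 to 2554 TPM at 3 days and 1733 to 1944 against 2493 to 2768 TPM at 6 days, and the part of these levels in the results below was not tested.

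One library, replicate 1 of DOX at 3 days, stood apart from its group in the genes described here. It lay above all 4 DMSO libraries of 3 days for 20 of the 35 import genes, whereas the other 3 DOX libraries did so for 31, 32 and 33. Over genes outside the import machinery that were called higher by DOX at 6 days (1325 genes), its median difference from DMSO at 3 days was 0.34 in log2, within the 0.32 to 0.35 of the other 3 libraries. It was not apart in the import genes alone. Over the group of tested genes with the shortest transcripts, its median deviation from the gene mean was -0.033 in log2 CPM, against 0.17 to 0.20 in the other 3. Results at 3 days are therefore given with and without it where it moved them.

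In the 8 DMSO libraries of both times, import genes spanned a 25.3-fold range of TPM, from 11.2 ± 0.813 (SD, n = 8) for *Chchd4* to 282 ± 27.3 for *Timm13*. Their median level was 53.6 TPM, and 10 of 35 exceeded 100 TPM. *Timm13*, a small TIM chaperone, ranked 418 among all genes of the TPM table by this level. It was followed by *Tomm20*, a receptor for presequences, at 254 ± 30.7 TPM and by *Timm8b*, another small TIM chaperone, at 211 ± 8.66 TPM. *Tomm20* shares sequence with the processed pseudogene *Gm14494*, whose counts were 1.97% of its own, so its level is slightly uncertain. At the lower end stood *Tomm34*, a cytosolic co-chaperone, at 20.9 ± 1.04 TPM, *Timm29*, a subunit of the TIM22 translocase, at 12.0 ± 1.09 TPM, and *Chchd4*, the oxidoreductase of the MIA relay. Of the 34 pairs of neighbours in this order, 32 overlapped in their library values. The other two were *Timm9* above *Dnajc15* and *Tomm34* above *Timm29*.

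By role, the 8 genes of the TOM complex summed to 1012 ± 31.6 TPM, the 6 small TIM chaperones to 662 ± 33.3, the 6 genes of the PAM motor to 457 ± 16.5 and the 5 of the TIM23 translocase to 355 ± 28.3 TPM (SD, n = 8 DMSO libraries each). The 3 genes of the SAM complex summed to 258 ± 33.1 TPM, the 2 subunits of the processing peptidase to 139.5 ± 12.95, the 2 genes of the MIA relay to 90.8 ± 5.80 and the 2 of the TIM22 translocase to 45.5 ± 4.53 TPM. The TOM complex held the pore subunit *Tomm40* at 46.5 ± 5.01 TPM, below its small subunits *Tomm7*, *Tomm6* and *Tomm5* at 196 ± 14.2, 194 ± 4.72 and 76.8 ± 5.03 TPM.

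**Figure D1:**
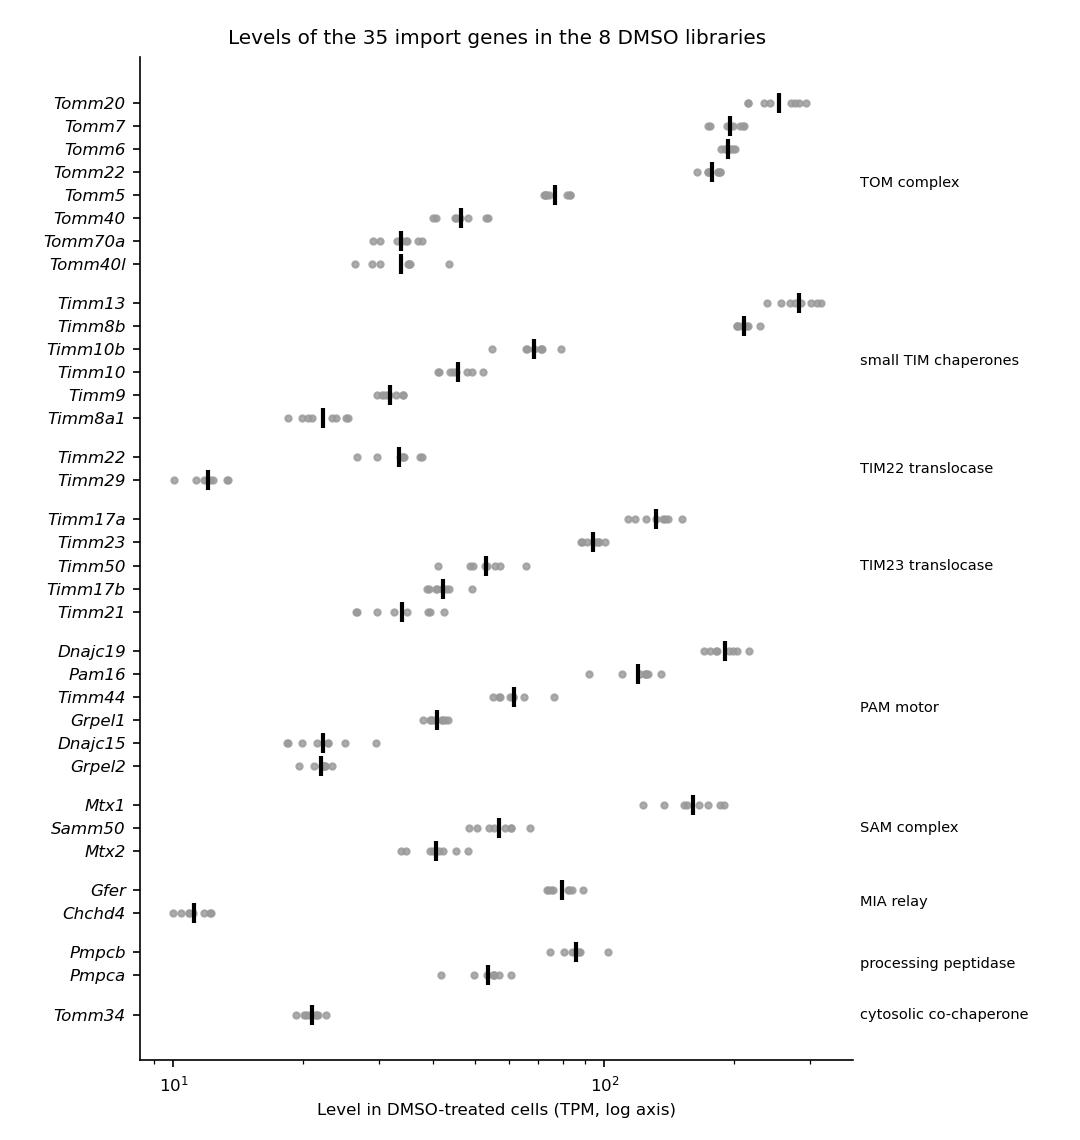
Level of each import gene in TPM on a log axis, grouped by role. Grey points are the 8 DMSO libraries (4 of 3 days and 4 of 6 days), and the black mark is their mean, from 11.2 TPM for *Chchd4* to 282 TPM for *Timm13*.

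Promoter windows from RefSeq (GRCm38.p6, 250 bases before to 50 after a start) were matched by symbol for 31 of the 35 genes. They were searched on both strands for the ETS motif CCGGAAGT, the NRF1 core GCGCATGCG, the YY1 motif AAGATGGC and the amino acid response element TGATGNAA, in which N is any base. The motifs were listed because regulators that bind them are known from other nuclear genes of mitochondria or from the response to amino acid stress. The ETS letters were in 7 of 31 import genes (22.6%): *Mtx2*, *Pmpcb*, *Timm10*, *Timm10b*, *Timm23*, *Timm29* and *Tomm70a*. They were in 3.89% of 32851 promoter windows of all genes and in 9.50% of the 9807 tested genes with a window. The NRF1 core was in *Timm13* only (3.23%, against 4.21% of tested genes and 1.75% of all windows), and the YY1 letters were in *Mtx1* and *Timm50* (6.45%, against 5.36% and 2.75%). The amino acid response element was in 0 of 31, against 2.60% of tested genes and 3.97% of all windows, which says only that these letters are not in these windows.

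The sequences below run from 100 bases before to 30 after the start of 3 genes that are described further on and carry the ETS letters, which are in capitals. *Pmpcb* (chr5:21737060-21737189, plus strand) holds them 16 bases before the start, *Timm10* (chr2:84826921-84827050, plus strand) 17 bases into the transcript, and *Mtx2* (chr2:74825712-74825841, plus strand) at both 25 bases before and 7 bases after the start.
Pmpcb: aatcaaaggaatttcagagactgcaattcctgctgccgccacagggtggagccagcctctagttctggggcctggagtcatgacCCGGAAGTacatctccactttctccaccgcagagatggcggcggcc
Timm10: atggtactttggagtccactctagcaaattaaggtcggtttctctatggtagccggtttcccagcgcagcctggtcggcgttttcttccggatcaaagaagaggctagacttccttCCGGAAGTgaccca
Mtx2: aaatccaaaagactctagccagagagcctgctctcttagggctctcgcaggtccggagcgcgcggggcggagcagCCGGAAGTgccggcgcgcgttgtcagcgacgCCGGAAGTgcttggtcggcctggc

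The first comparison asked which import genes changed after 3 days of DOX. Among the 35, 7 rose and 0 fell. A gene is named as called, risen or fallen where edgeR's glmTreat, which asks whether a change exceeds 20%, gave an adjusted p under 0.05 over all 13234 genes. Over all tested genes 5.30% were called higher and 7.22% lower. The genes that rose were the PAM subunit *Dnajc15*, the small TIM chaperones *Timm10*, *Timm8a1* and *Timm9*, the TIM23 subunit *Timm21*, the peptidase subunit *Pmpcb* and the MIA relay oxidase *Gfer*, by 1.34- to 1.61-fold. Of the 28 others, 26 had fitted changes above 0 that did not pass, and *Timm29* and *Pmpca* had fitted changes below 0. The median log2 fold change over the 35 was 0.24, beside 0.0031 over all tested genes. All 4 DOX libraries lay above all 4 DMSO libraries for 19 import genes (background 18.8%), and below them for 0 (background 19.8%). Without replicate 1 of DOX, the other 3 DOX libraries lay above all DMSO libraries for 31 of 35 (background 28.7%) and below for 0 (background 28.3%). That library was noticed because it was low in these same genes, so a higher count follows from leaving it out. Leaving out any other single library of 3 days gave 19 to 22 above (background 19.8% to 22.0%) and 0 or 1 below. In these bulk libraries, fewer cells of a type and less RNA per cell cannot be told apart.

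**Figure D2:**
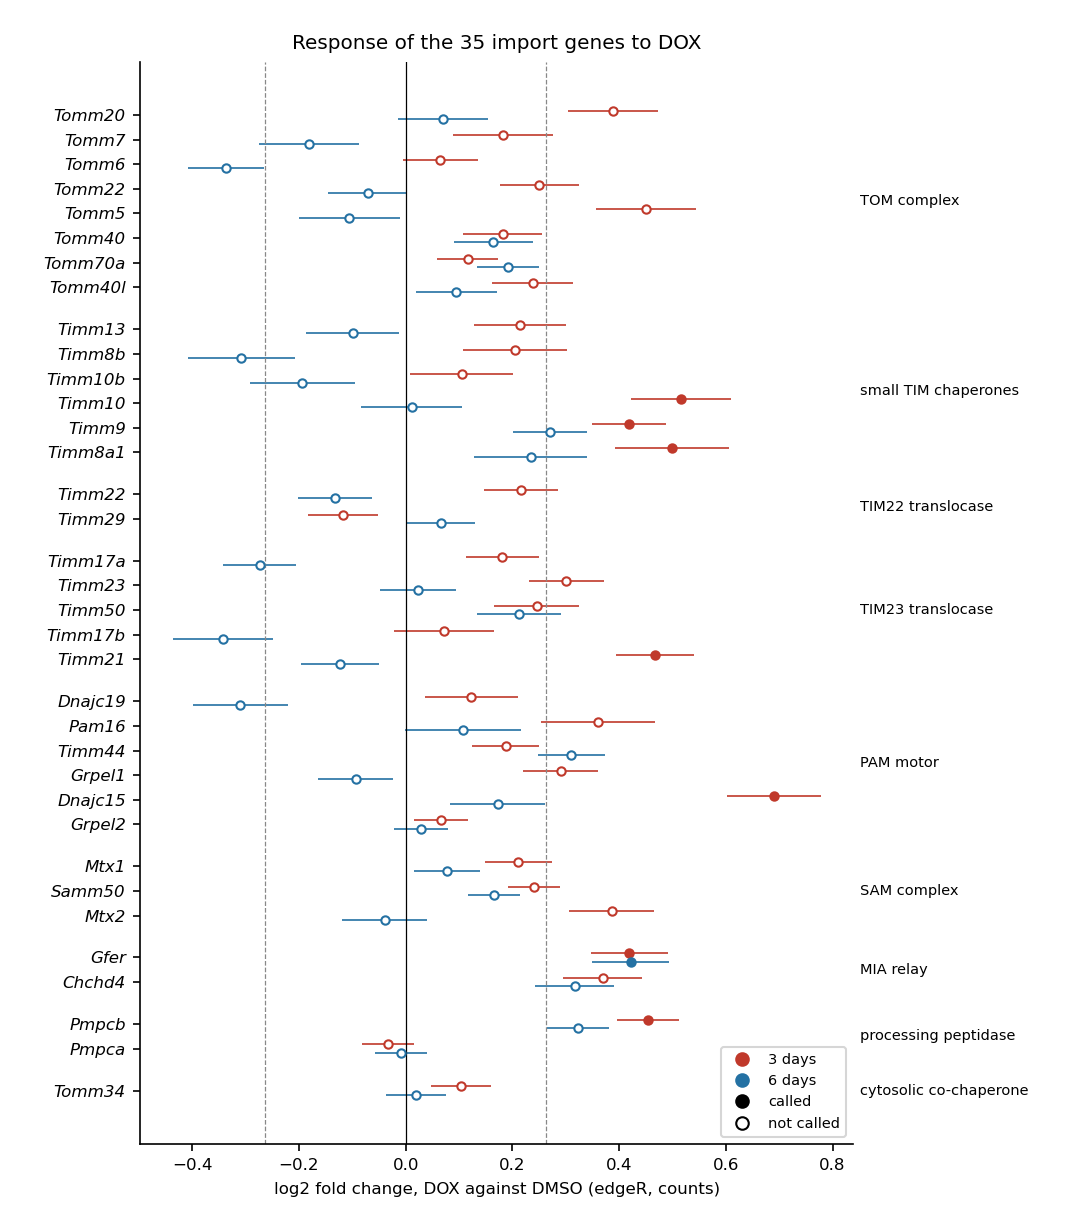
log2 fold change of DOX against DMSO for each import gene at 3 days (red) and 6 days (blue), grouped by role, with bars of ± 1 SE from edgeR. Filled points were called, 7 at 3 days and 1 at 6 days, and dashed lines mark a change of 1.2-fold in either direction.

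*Dnajc15* (ENSMUSG00000022013, chromosome 14 from 77820681 to 77875125, minus strand) encodes a membrane J protein that stimulates the import motor. Its CPM in replicates 1 to 4 was 15.1, 16.8, 14.2 and 14.5 in DMSO at 3 days and 20.5, 24.7, 25.9 and 26.8 in DOX. The groups did not overlap, and replicate 1 was the lowest of the DOX libraries. This was the largest change among the import genes at 3 days, 0.69 ± 0.088 in log2 (SE), 1.61-fold, with an adjusted p of 0.00022. At 6 days the CPM was 16.6, 16.8, 14.5 and 14.8 in DMSO and 19.4, 16.5, 18.5 and 16.4 in DOX, where the groups overlapped and the log2 fold change of 0.17 ± 0.089 did not pass (adjusted p = 1).

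*Timm10* (ENSMUSG00000027076, chromosome 2 from 84826997 to 84830213, plus strand) encodes a core subunit of the hexameric chaperone that escorts carrier proteins. It had 18.7, 19.5, 18.4 and 16.2 CPM in DMSO at 3 days and 22.6, 28.5, 26.1 and 26.7 CPM in DOX, without overlap. The rise was 0.52 ± 0.094 in log2 (SE), with an adjusted p of 0.0163. *Timm9* (ENSMUSG00000021079, chromosome 12 from 71123173 to 71136684, minus strand), its partner in that hexamer, had 18.7, 18.4, 19.6 and 17.5 CPM in DMSO and 22.1, 25.9, 26.4 and 24.8 CPM in DOX. These groups did not overlap either, and the rise was 0.42 ± 0.069 (adjusted p = 0.0366). At 6 days *Timm10* had 20.9, 21.6, 18.7 and 17.2 CPM in DMSO and 22.6, 17.7, 21.1 and 17.9 CPM in DOX, which overlapped. *Timm9* had 18.3, 16.8, 18.4 and 18.3 CPM in DMSO and 23.4, 21.6, 21.2 and 20.5 CPM in DOX, still without overlap, but its log2 fold change of 0.27 ± 0.070 did not pass (adjusted p = 0.537).

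*Timm8a1* (ENSMUSG00000048007, chromosome X from 134537256 to 134541865, minus strand) encodes the mouse counterpart of the human deafness-dystonia protein, a subunit of another small TIM hexamer. Its CPM was 23.5, 22.5, 24.6 and 18.3 in DMSO at 3 days and 26.8, 33.5, 31.2 and 33.7 in DOX, without overlap. The rise was 0.50 ± 0.106 in log2 (adjusted p = 0.0392). The value is uncertain, because the transcribed pseudogene *Gm9797* is identical to it over 612 bases and had counts equal to 21.5% of its own. At 6 days the CPM was 22.1, 27.2, 24.1 and 25.5 in DMSO and 34.3, 30.5, 23.9 and 27.6 in DOX, where replicate 3 of DOX fell among the DMSO libraries and the log2 fold change of 0.23 ± 0.106 did not pass (adjusted p = 0.721).

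*Timm21* (ENSMUSG00000024645) encodes a TIM23 subunit that contacts the TOM complex and hands precursors to respiratory chain assembly. Its CPM was 20.2, 21.3, 17.9 and 18.3 in DMSO at 3 days and 24.3, 26.8, 28.2 and 28.4 in DOX, without overlap, a rise of 0.47 ± 0.074 in log2 (adjusted p = 0.0136). At 6 days it was 21.3, 23.97, 24.4 and 24.1 in DMSO and 23.2, 20.3, 21.6 and 21.3 in DOX, with a log2 fold change of -0.12 ± 0.073 (adjusted p = 1). The DOX libraries of 6 days thus overlapped the DMSO range from below.

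*Pmpcb* (ENSMUSG00000029017, chromosome 5 from 21737141 to 21757152, plus strand) encodes the catalytic subunit of the processing peptidase, and *Pmpca* the subunit that binds the presequence. *Pmpcb* had 98.1, 97.9, 102 and 92.6 CPM in DMSO at 3 days and 125, 139, 132 and 139.5 CPM in DOX. No library overlapped, and the rise was 0.45 ± 0.058 in log2 (adjusted p = 0.00477). At 6 days it had 120.2, 107, 102 and 103 CPM in DMSO and 139.5, 133, 138 and 129.7 CPM in DOX, also without overlap, but 0.32 ± 0.058 did not pass (adjusted p = 0.186). *Pmpca* had 104, 116, 111 and 113 CPM in DMSO and 106, 108, 109 and 111 CPM in DOX at 3 days, and 123, 117, 115 and 119 against 111, 119, 117 and 123 CPM at 6 days. Its groups overlapped at both times, with log2 fold changes of -0.034 ± 0.049 and -0.0082 ± 0.049. *Pmpca* overlaps *Inpp5e* on the opposite strand over 20.4% of its exon bases, and the sources used here do not state whether reads were counted by strand.

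*Gfer* (ENSMUSG00000040888, chromosome 17 from 24693187 to 24696156, minus strand) encodes the sulfhydryl oxidase that recharges *Chchd4*, the receptor that forms disulfides in incoming proteins. It was the only import gene called at both times. *Gfer* had 59.3, 60.6, 59.5 and 54.2 CPM in DMSO and 69.8, 79.1, 81.1 and 82.2 CPM in DOX at 3 days, a log2 fold change of 0.42 ± 0.072 (adjusted p = 0.0439). At 6 days it had 66.5, 54.3, 52.9 and 56.2 CPM in DMSO and 74.5, 72.0, 78.2 and 83.2 CPM in DOX, a log2 fold change of 0.42 ± 0.072 (adjusted p = 0.0255). The groups did not overlap at either time. A transcript of *Dst* matches 573 bases of *Gfer* at 99.83% identity, so some reads could be assigned to either. The counts of *Dst* were 177.7% of those of *Gfer*, so the values of *Gfer* are uncertain. *Chchd4* had 27.6 to 31.9 CPM in DMSO and 35.8 to 42.3 CPM in DOX at 3 days, and 29.1 to 35.3 against 36.8 to 42.3 CPM at 6 days. It was also without overlap at both times, but its log2 fold changes of 0.37 ± 0.075 and 0.32 ± 0.074 did not pass (adjusted p = 0.146 and 0.281).

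**Figure D3:**
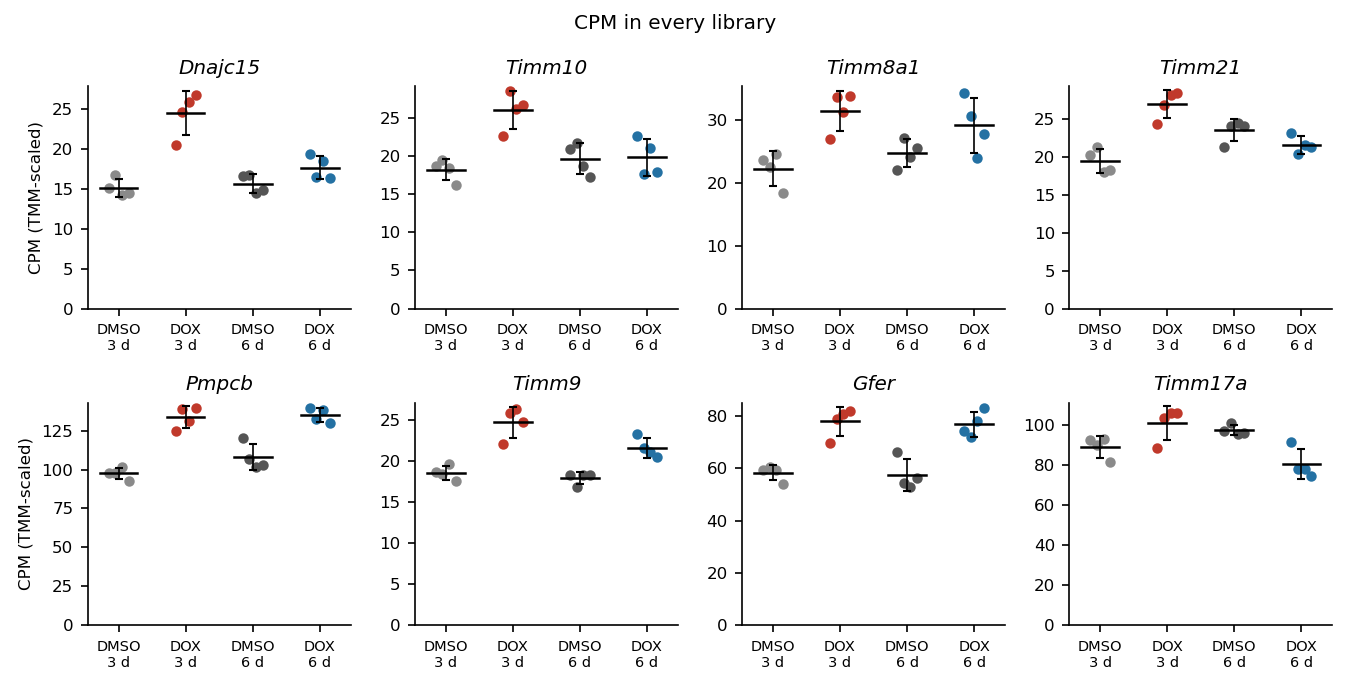
TMM-scaled CPM in every library for the 7 genes called at 3 days and for *Timm17a*, from 0. Points are libraries in order of replicate number, lines are group means and bars are ± 1 SD (n = 4). In the 7 called genes the DOX libraries of 3 days lie above the DMSO libraries of 3 days.

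The TOM complex had 0 of 8 genes called at 3 days, beside 5.30% of all tested genes called higher and 7.22% lower. At these shares a small group will often have 0 called, so such counts are not read as particular to a complex. The TOM genes had fitted log2 fold changes from 0.065 for *Tomm6* to 0.45 for *Tomm5*. *Tomm5*, a small subunit that stabilizes the pore, came nearest to the threshold, with 25.8 to 29.5 CPM in DMSO and 30.6 to 41.4 CPM in DOX (adjusted p = 0.0572). The SAM complex had 0 of 3 called, and its log2 fold changes ran from 0.21 for *Mtx1* to 0.39 for *Mtx2*. In the TIM22 translocase, the channel gene *Timm22* had 0.22 ± 0.069 and *Timm29* -0.12 ± 0.065, neither called. *Tomm34* had 0.10 ± 0.057.

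Transcript length moved with the 3-day result. Tested genes were split by the length of their longest annotated transcript into 5 groups of about equal size. The median log2 fold change at 3 days went from 0.20 in the group with the shortest transcripts to -0.16 in the group with the longest, while at 6 days these medians were -0.035 and -0.046. The import genes had a median annotated length of 2381 bases, against 3010 over tested genes, and 23 of 35 were shorter than that. By the length implied by the ratio of deposited counts to TPM, which reflects the transcripts that were quantified, their median was 0.453 of that of tested genes, and 28 of 35 were shorter. From the shortest to the longest group, the import genes had medians of 0.25 (13 genes), 0.18 (7), 0.22 (7), 0.24 (5) and 0.18 (3) at 3 days. The medians of all genes in the same groups were lower, at 0.20, 0.087, 0.0036, -0.071 and -0.16. These groups rest on annotated length, which can differ from the implied length. In the longest group *Timm17a*, *Dnajc15* and *Tomm70a* had implied lengths of 0.368, 0.348 and 2.7 of the median of tested genes. The comparison by group therefore does not hold the quantified length alike. When smooth trends on length and GC content were removed in the fit, 1 import gene was called higher at 3 days, *Dnajc15*, beside 4.90% of all tested genes, and the median over the 35 was 0.19. The longest annotated transcript of *Dnajc15* has 6193 bases, but its implied length was 0.348 of the median of tested genes. With offsets from the implied length, 2 were called higher, *Chchd4* and *Dnajc15*, beside 4.76% of all tested genes, and the median was 0.13. On TPM, which shifts the median of all genes at 3 days to -0.15, the median over the 35 was 0.045 by limma on log2(TPM + 1), and 0 import genes were called. Over all genes limma called 85 higher and 616 lower on that scale, against 702 and 956 by edgeR on counts.

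**Figure D4:**
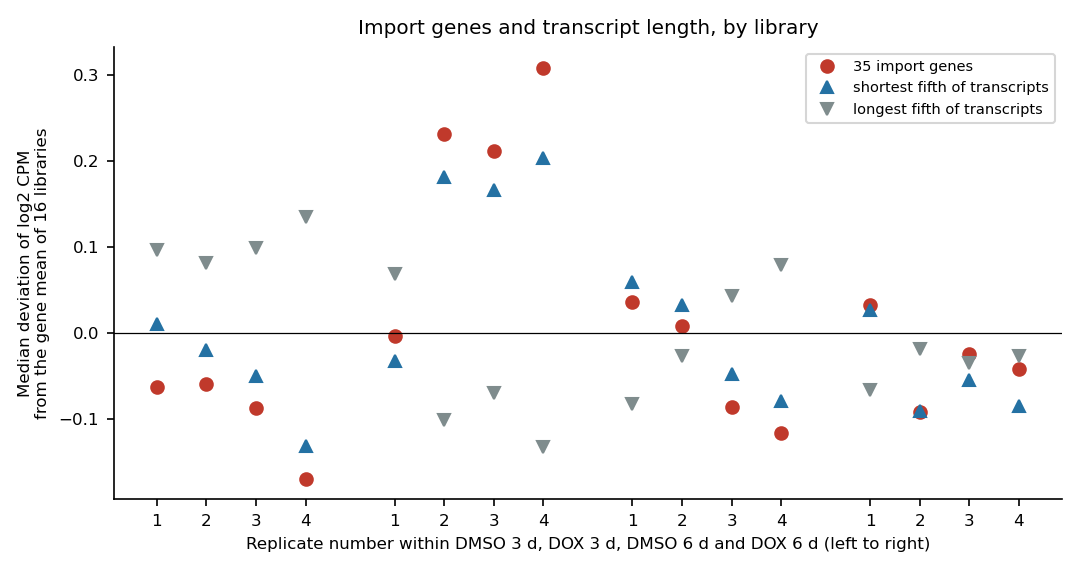
Median deviation of log2 CPM from the gene mean of all 16 libraries, for the 35 import genes (circles) and for the groups of tested genes with the shortest and longest transcripts (triangles), in each library. The import genes lie at 0.23, 0.21 and 0.31 in replicates 2, 3 and 4 of DOX at 3 days and at -0.0042 in replicate 1, and the group with the shortest transcripts moves with them.

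The same library pattern was seen over all 35 genes. Their median deviation from the gene mean was -0.064, -0.060, -0.088 and -0.17 in DMSO at 3 days and -0.0042, 0.23, 0.21 and 0.31 in DOX. The group with the shortest transcripts had 0.0096, -0.020, -0.051 and -0.13 in these DMSO libraries and -0.033, 0.18, 0.17 and 0.20 in the DOX libraries. Without replicate 1 of DOX, 11 import genes were called, the 7 above with *Chchd4*, *Mtx2*, *Tomm20* and *Tomm5*, and the median was 0.29. Without replicate 4 of DMSO or replicate 2 of DOX, 3 were called, *Dnajc15*, *Pmpcb* and *Timm21* in both cases. Leaving out replicate 2 of DMSO, or replicate 3 or 4 of DOX, left 4 called. The share of all tested genes called was not counted in these fits. Their counts therefore cannot be read as particular to the import genes.

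After 6 days of DOX, 1 import gene was called higher, *Gfer*, and 0 lower, while 10.0% of all tested genes were called higher and 11.6% lower. The median log2 fold change over the 35 was 0.023, beside -0.0006 over all genes, and on log2(TPM + 1) it was -0.037, beside -0.055. All 4 DOX libraries lay above all DMSO libraries for 7 import genes (background 22.1%): *Chchd4*, *Gfer*, *Pmpcb*, *Samm50*, *Timm44*, *Timm9* and *Tomm70a*. They lay below them for 5 (background 20.9%): *Dnajc19*, *Timm17a*, *Timm17b*, *Timm8b* and *Tomm6*, whose log2 fold changes from -0.27 to -0.34 did not pass. Without replicate 1 of DOX the libraries lay below for 9 (24.8% of all tested genes) and above for 8 (26.0%). The call for *Gfer* was lost without replicate 2, 3 or 4 of DMSO and without replicate 3 or 4 of DOX, which left 0 called. Without replicate 1 of DMSO 3 were called, *Gfer*, *Pmpcb* and *Timm44*. For these fits, too, the share of all tested genes called was not counted. Between DMSO at 6 and 3 days, glmTreat called 0 of 35 import genes and 0.00% of all tested genes. At an unadjusted p under 0.05 there were 0 import genes and 172 genes in all.

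The next comparison asked whether the DOX effect differed between the times, as the difference of the log2 fold changes at 6 and 3 days by edgeR's glmQLFTest without a fold threshold. The effect was lower at 6 days for 13 of 35 import genes and higher for 0, against 9.58% lower and 7.44% higher over all tested genes. They were *Tomm5*, *Tomm6* and *Tomm22* of the TOM complex, *Timm8b* and *Timm10* of the small TIM chaperones, *Timm17a*, *Timm17b* and *Timm21* of the TIM23 translocase, *Dnajc15*, *Dnajc19* and *Grpel1* of the PAM motor, *Timm22* and *Mtx2*. The median difference over the 35 was -0.28, beside 0.0061 over all genes. The MIA relay genes *Gfer* and *Chchd4* were not among them, with differences of 0.0030 ± 0.102 and -0.052 ± 0.105.

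*Timm21* had the largest difference, -0.59 ± 0.104 in log2 (SE, adjusted p = 0.00128). It was the only import gene called when a 1.2-fold threshold was put on the difference, beside 0.725% of all tested genes called lower. It was followed by *Tomm5* at -0.56 ± 0.133 (adjusted p = 0.00835), *Dnajc15* at -0.52 ± 0.125 (adjusted p = 0.00893) and *Timm8b* at -0.51 ± 0.1396 (adjusted p = 0.0172). *Tomm5* had a mean of 38.1 ± 5.04 CPM (SD, n = 4) in DOX at 3 days and 27.1 ± 3.08 CPM in DOX at 6 days, beside 29.1 ± 2.76 CPM in DMSO at 6 days. *Tomm6*, a small TOM subunit, had 92.6 ± 10.9 CPM in DOX at 3 days and 67.3 ± 2.02 CPM in DOX at 6 days, beside 84.9 ± 4.96 CPM in DMSO at 6 days. Reads of *Tomm6* could be shared with *Gm21981* and *Usp49*, which overlap it. *Tomm22*, the central receptor, had 175 ± 19.0 and 145 ± 8.81 CPM in DOX at 3 and 6 days, and *Timm22*, the channel for carrier proteins, 37.5 ± 3.97 and 29.2 ± 1.66 CPM. In DMSO *Tomm22* had 148 ± 13.2 and 153 ± 6.63 CPM, and *Timm22* 32.3 ± 0.910 and 32.0 ± 1.415 CPM. Each difference also holds the change in DMSO between the times. That change was 0.27 ± 0.074 in log2 (SE) for *Timm21* and 0.25 ± 0.080 for *Mtx2*, neither called. Over the 35 it was above 0 for 24 and below 0 for 11.

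This count also moved with length. With the length and GC trends removed, 8 import genes were called lower at 6 days and 0 higher, beside 8.23% and 5.27% of all tested genes, of which 7 were among the 13: *Dnajc15*, *Grpel1*, *Mtx2*, *Timm17a*, *Timm17b*, *Timm21* and *Timm22*. With offsets from the implied length 2 were called lower, *Grpel1* and *Mtx2*, and 0 higher, beside 7.90% and 5.24% of all tested genes, and the median difference was -0.11. On log2(TPM + 1), limma called 6 of the 13 lower: *Timm10*, *Timm17a*, *Timm21*, *Timm8b*, *Tomm5* and *Tomm6*. It called 2.91% of all genes lower and 2.09% higher on that scale. Without replicate 1 of DOX at 3 days, all 13 were called with 5 more, but the share of all tested genes called in that fit was not counted.

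Some import subunits exist as a pair of related or partner genes, and the ratio of the 2 TPM values within a library compared them without regard to library scaling. Trends on length and GC content were not removed from these ratios, and paired genes can differ in length. Implied lengths were 1.18 and 0.646 of the median of tested genes for *Pmpca* and *Pmpcb*, and 0.569 and 0.141 for *Timm8a1* and *Timm8b*. For 6 pairs at both times the DOX and DMSO libraries were compared by exact permutation, two-sided. Its smallest p is 0.0286. After adjustment over the 12 tests 0 passed, the smallest adjusted p being 0.0571. An unadjusted p of 0.0286, the value given by groups without overlap, was reached by 6. No ratio could pass by itself, because that took more than 6 of the 12 at the smallest p. The lack of a pass therefore does not show that a ratio was unchanged. Ratios of other gene pairs were not counted, so the 6 cannot be read as particular to these pairs. Of single tested genes, 18.8% lay wholly above DMSO and 19.8% wholly below at 3 days, and 22.1% and 20.9% at 6 days.

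*Timm17a* and *Timm17b* encode alternative subunits of the TIM23 channel. *Timm17a* had 92.3, 89.7, 92.8 and 81.2 CPM in DMSO and 88.3, 104, 106 and 106 CPM in DOX at 3 days, and 96.9, 101, 95.4 and 96.0 against 91.6, 78.0, 77.9 and 74.6 CPM at 6 days. *Timm17b* had 35.2, 29.1, 31.4 and 29.4 against 27.2, 32.6, 32.0 and 39.5 CPM at 3 days, and 36.3, 35.4, 31.9 and 31.4 against 28.9, 28.2, 24.5 and 24.8 CPM at 6 days. For both genes the groups overlapped at 3 days and the DOX libraries were all lower at 6 days. The TPM ratio of *Timm17a* to *Timm17b* was 3.04 in DMSO and 3.45 in DOX at 3 days (exact p = 0.0857), and 3.20 and 3.42 at 6 days (exact p = 0.257), with overlap at both times.

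*Dnajc15* and *Dnajc19* encode related J proteins of the motor. *Dnajc19* had 78.6, 69.9, 72.0 and 60.3 CPM in DMSO and 62.5, 79.7, 79.7 and 83.5 CPM in DOX at 3 days, with overlap, and 64.2, 73.0, 61.5 and 62.4 against 58.0, 51.5, 50.4 and 51.0 CPM at 6 days, without. The ratio of *Dnajc15* to *Dnajc19* was 0.0923, 0.125, 0.111 and 0.142 in DMSO and 0.211, 0.176, 0.229 and 0.190 in DOX at 3 days, a difference of 0.79 in log2 without overlap (exact p = 0.0286, adjusted p = 0.0571). At 6 days the ratio was 0.174, 0.0920, 0.102 and 0.112 in DMSO and 0.142, 0.144, 0.228 and 0.231 in DOX, where replicate 1 of DMSO fell within the DOX range (exact p = 0.0857). *Dnajc19* overlaps *Fxr1* on the opposite strand over 4.4% of its exon bases.

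*Timm8b*, which belongs to the same family as *Timm8a1*, had 65.2, 59.6, 57.8 and 51.5 CPM in DMSO and 52.4, 69.3, 70.6 and 77.2 CPM in DOX at 3 days. At 6 days it had 56.6, 54.6, 51.0 and 49.7 against 49.7, 40.9, 41.1 and 39.7 CPM, with replicate 1 of DOX just below the lowest DMSO library. The ratio of *Timm8a1* to *Timm8b* was 0.0866, 0.0954, 0.109 and 0.0909 in DMSO and 0.132, 0.122, 0.112 and 0.110 in DOX at 3 days. It was 0.103, 0.119, 0.114 and 0.125 against 0.166, 0.179, 0.150 and 0.181 at 6 days. The ratios did not overlap at either time, with differences of 0.32 and 0.55 in log2 (exact p = 0.0286, adjusted p = 0.0571 for each). At 3 days the groups nearly touched, with 0.1096 in replicate 4 of DOX and 0.1092 in replicate 3 of DMSO. The limit named for *Timm8a1* applies here, and *Timm8b* overlaps *Nkapd1* on the opposite strand over 15.6% of its exon bases.

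The ratio of *Pmpca* to *Pmpcb* was 0.558, 0.620, 0.635 and 0.645 in DMSO and 0.441, 0.408, 0.444 and 0.405 in DOX at 3 days. It was 0.596, 0.650, 0.627 and 0.654 against 0.407, 0.482, 0.461 and 0.525 at 6 days. Every DOX library was lower than every DMSO library at both times, with differences of -0.53 and -0.44 in log2 (exact p = 0.0286, adjusted p = 0.0571 for each).

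*Grpel1* and *Grpel2* encode nucleotide exchange factors for the motor chaperone. *Grpel1* had 125, 119, 114 and 109 CPM in DMSO and 119, 157, 142 and 153 CPM in DOX at 3 days, and 124, 126, 118 and 118 against 122, 110.3, 115 and 108 CPM at 6 days. *Grpel2* had 62.6, 67.9, 68.4 and 63.1 against 68.9, 63.9, 72.3 and 69.4 CPM at 3 days, and 73.5, 72.7, 71.8 and 72.7 against 73.7, 76.0, 73.8 and 72.9 CPM at 6 days. Both genes overlapped between the groups at both times. Their TPM ratio was 1.83 in DMSO and 2.21 in DOX at 3 days, with overlap (exact p = 0.0857), and 1.89 and 1.71 at 6 days, without (exact p = 0.0286, adjusted p = 0.0571). *Grpel1* shares 411 bases with *Tada2b* on the opposite strand.

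*Mtx1* and *Mtx2* encode metaxins of the SAM complex. *Mtx1* had 53.5, 55.0, 57.6 and 56.5 CPM in DMSO and 62.4, 66.3, 65.4 and 63.8 CPM in DOX at 3 days, and 72.3, 65.0, 61.3 and 56.3 against 69.3, 67.3, 66.4 and 66.0 CPM at 6 days. *Mtx2* had 59.5, 52.0, 57.1 and 50.1 against 62.1, 71.4, 70.3 and 81.5 CPM at 3 days, and 59.1, 73.4, 62.9 and 64.1 against 67.2, 64.2, 58.8 and 62.6 CPM at 6 days. Neither overlapped at 3 days and both did at 6 days. Their ratio was 3.79 and 3.45 at 3 days (exact p = 0.0857) and 4.10 and 3.79 at 6 days (exact p = 0.257). *Mtx1* overlaps *Gm43737* and *Thbs3* on the opposite strand, over 21.2% and 8.9% of its exon bases.

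**Figure D5:**
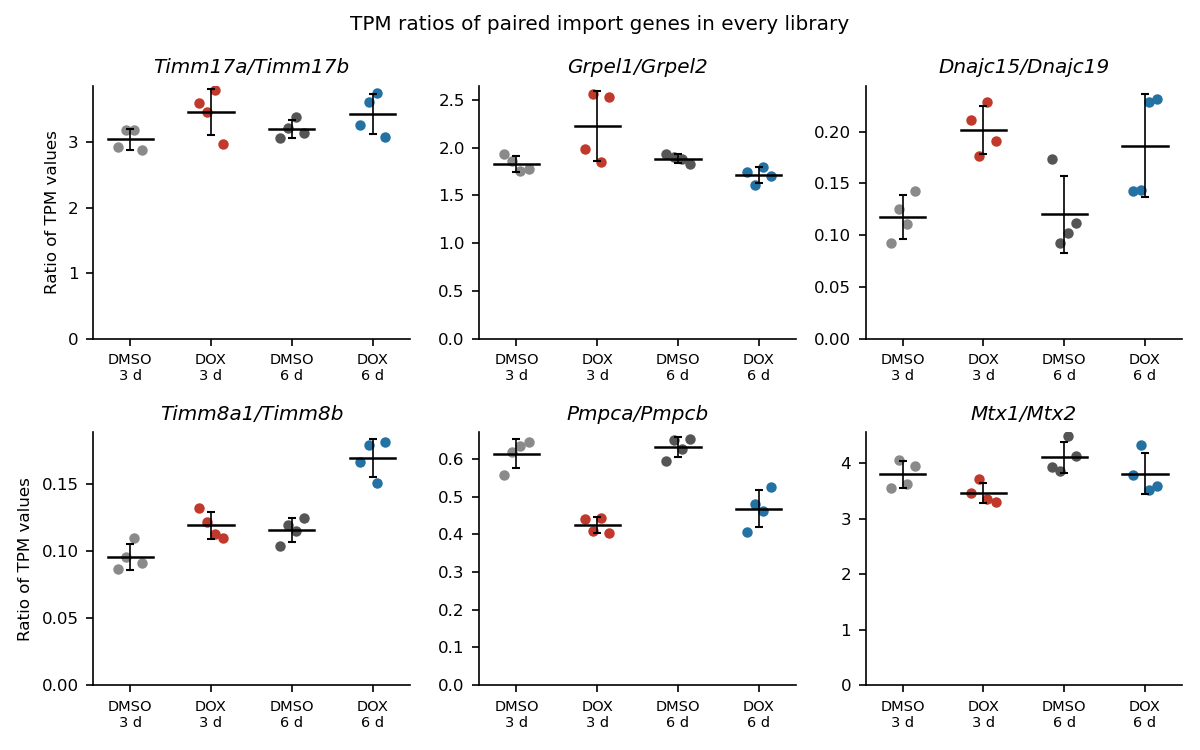
Ratio of the TPM values of paired import genes in every library, from 0. Points are libraries in order of replicate number, lines are group means and bars are ± 1 SD (n = 4). The DOX libraries of *Pmpca*/*Pmpcb* lie between 0.405 and 0.525, all below the DMSO libraries. Those of *Timm8a1*/*Timm8b* lie above the DMSO libraries of the same time, at 3 days by a very narrow margin.

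A list of 20 further genes that work with the import machinery covered matrix and cytosolic chaperones, insertases and proteases. At 3 days 5 of 20 rose and 0 fell, and at 6 days 6 rose and 1 fell, beside the 7 and 1 of 35 import genes that rose. Of all tested genes 5.30% rose and 7.22% fell at 3 days, and 10.0% rose and 11.6% fell at 6 days. Their median log2 fold change was 0.22 at 3 days and 0.29 at 6 days. In the difference between times 1 of 20 was lower, *Mtch2*, which encodes an outer membrane insertase (-0.33 ± 0.084, adjusted p = 0.0114), and 0 were higher, against 9.58% and 7.44% of all tested genes.

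*Hspa9*, the chaperone of the import motor itself, had 773, 801, 810.1 and 797 CPM in DMSO and 1328, 1271, 1238 and 1220 CPM in DOX at 3 days. At 6 days it had 874, 823, 859.9 and 872 against 1640, 1566, 1575 and 1535 CPM. The groups were far apart at both times, including replicate 1 of DOX at 3 days, which was the highest. The rises were 0.67 ± 0.058 and 0.88 ± 0.058 in log2 (adjusted p = 3.8e-06 and 4.66e-09). *Hspd1*, the matrix folding chamber, rose by 0.48 ± 0.064 and 0.60 ± 0.064 (adjusted p = 0.00445 and 3.41e-05), and its lid *Hspe1* rose at 3 days (0.60 ± 0.099, adjusted p = 0.00467) but had 0.37 ± 0.099 at 6 days (adjusted p = 0.183).

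*Immp2l*, a subunit of the inner membrane peptidase, had 1.56 to 2.09 CPM in DMSO and 3.66 to 5.03 CPM in DOX at 3 days, and 1.33 to 1.95 against 3.58 to 5.28 CPM at 6 days. It was a low-level gene with the largest rises of the list, 1.28 ± 0.166 and 1.45 ± 0.168 in log2 (adjusted p = 3.4e-05 and 2.46e-06). *Agk*, a lipid kinase that is also a TIM22 subunit, rose by 0.46 ± 0.089 and 0.50 ± 0.087 (adjusted p = 0.0406 and 0.00969). *Oxa1l*, the insertase for proteins made inside the mitochondrion, rose at 6 days (0.48 ± 0.068, adjusted p = 0.00302), as did the cytosolic chaperone *Hsp90ab1* (0.43 ± 0.068, adjusted p = 0.0162). *Romo1*, a small TIM23 subunit, fell at 6 days, with 39.3 to 60.2 CPM in DMSO and 29.2 to 38.7 CPM in DOX (-0.51 ± 0.115, adjusted p = 0.0309). With the length and GC trends removed, 4 of the 20 rose and 0 fell at 3 days, and 7 rose and 1 fell at 6 days. In that fit 4.90% of all tested genes rose and 6.11% fell at 3 days, and 10.7% rose and 12.6% fell at 6 days.

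Among the 31 import genes with a promoter window, 2 of the 7 with the ETS letters (*Pmpcb* and *Timm10*) and 4 of the 24 without were called at 3 days. Their median log2 fold changes at 3 days were 0.30 with the letters, from -0.12 to 0.52, and 0.23 without, from -0.034 to 0.69. The difference between times was called for 2 of the 7 and 10 of the 24. Of all tested genes 5.30% were called higher at 3 days and 9.58% lower in the difference. Calls among all tested genes with the letters were not counted, so the split is a description only.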

How the data were processed

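Polyadenylated RNA of 16 mIMCD3 libraries was sequenced as read pairs. Reads were aligned to GRCm38.p6 with STAR 2.6.0c, and genes were quantified with Salmon (0.14.10 in the submitters' processing notes). The deposited estimated counts hold fractions (20.1% of values) and are not normalized, and the authors also deposited TPM. Strand settings of the quantification are not given in the sources used here. Positions, lengths and overlaps came from GENCODE M21, which held all 54393 gene identifiers.

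Counts were rounded, filtered (at least 1 CPM in at least 4 libraries, 13234 genes) and scaled by TMM. edgeR 4.0.16 in R 4.3.3 was fitted robustly to all 16 libraries with 1 mean per group. Treatments were compared by glmTreat (1.2-fold) and the effects of the 2 times by glmQLFTest, two-sided, with Benjamini-Hochberg adjustment over all tested genes (limit 0.05). An SE is the log2 fold change divided by the root of its F statistic. Gene pairs were compared on log2 TPM ratios by exact permutation. Copies were sought at 95% identity over 150 bases. Import genes and lists were chosen with earlier results of these data known. Named singly were the called import genes, the fixed pairs and the called partner genes, and *Tomm5*, *Tomm6*, *Tomm22*, *Timm22* and *Chchd4* were added after their values were seen. The steps were tested on simulated counts. Alternatives were RLE scaling, DESeq2 1.42.0, limma 3.58.1 on log2(TPM + 1) and log2(TPM + 0.5), other filters and thresholds, the replicate number as a block, the 8 libraries of a comparison alone, offsets for length and GC content, and leaving out each library. Length was that of the longest annotated transcript. Offsets using the length implied by counts and TPM, and non-overlap counts without each library, were added after seeing the data. At the depths found, 3 counts were 0.125 to 0.177 CPM, a floor for counting error only.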

Additional observations from a re-analysis of the deposited data

Results flagged for a closer look

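In 140 tests of whether the highest or lowest library of a group of 4 stood apart in an import gene, 14 did, where chance gives about 1 in 20, or 7. Replicate 1 of DOX at 3 days was the lowest and apart for *Timm17a* (88.28 CPM, the others 103.5 to 105.9), *Tomm20* (350.1 CPM, the others 447.2 to 455.5), *Tomm22* (147.1 CPM, the others 183.1 to 187.9), *Tomm5* (30.55 CPM, the others 40.1 to 41.35) and *Tomm6* (76.27 CPM, the others 96.98 to 99.26). Replicate 1 of DOX at 6 days was apart and highest for *Dnajc19* (58.0 CPM), *Timm44* (96.05 CPM), *Timm8b* (49.66 CPM) and *Tomm20* (369.4 CPM), and lowest for *Tomm40* (56.99 CPM). Among the DMSO libraries of 6 days, replicate 1 was apart and lowest for *Timm21* (21.32 CPM) and *Tomm70a* (149.4 CPM), and replicate 2 was lowest for *Timm9* (16.84 CPM) and highest for *Tomm22* (162.5 CPM).

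By edgeR's glmQLFTest, 13 import genes differed in their DOX effect between 3 and 6 days. The differences in log2 were -0.5172 for *Dnajc15*, -0.4327 for *Dnajc19*, -0.3843 for *Grpel1*, -0.4252 for *Mtx2*, -0.5047 for *Timm10* and -0.4546 for *Timm17a*. They were -0.4151 for *Timm17b*, -0.5899 for *Timm21*, -0.349 for *Timm22*, -0.5127 for *Timm8b*, -0.3212 for *Tomm22*, -0.5568 for *Tomm5* and -0.4022 for *Tomm6*.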

How the results depend on the processing

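Across the alternatives no result with a call reversed its direction. Single gene calls were lost in 149 repeats. *Dnajc15* at 3 days kept its call in 18 of 20 alternatives, *Pmpcb* in 15, *Timm21* in 13, *Timm10* in 12, *Timm8a1* in 8, *Timm9* in 7 and *Gfer* in 4, and *Gfer* at 6 days kept its in 12 of 20. The 7 import genes called at 3 days became 2 with DESeq2, 0 by limma on log2(TPM + 1) and on log2(TPM + 0.5), 24 without a fold threshold, 1 with length and GC offsets, with or without the replicate block, 2 with the implied length and GC offsets, and 3 to 11 when one library was left out. All of these were higher. Of all tested genes, 23.0% were called higher at 3 days without a threshold and 3.12% with DESeq2. The 1 called at 6 days became 0 with DESeq2, 13 without a threshold (8 higher and 5 lower), 2 with each set of offsets, with the block too, and 0 to 3 when one library was left out. By limma the 1 called at 6 days was *Tomm6*, which was lower, in place of *Gfer*. With pseudocounts of 1 and 0.5, limma called 7.06% and 7.53% of all genes lower at 6 days. The 13 whose effect differed between times became 6 by limma with either pseudocount, 1 with a 1.2-fold threshold, 8 with length and GC offsets, 8 again with the block added (7 lower and 1 higher, *Timm44*), 2 with the implied length, and 9 to 18 when one library was left out. Of all genes, 2.91% were called lower by limma with either pseudocount and 0.725% with the threshold. With offsets and the block 7.75% were called lower and 5.09% higher. Such shares were not counted for fits without a library. Over all genes, 1658 calls by edgeR at 3 days became 1019 with DESeq2, 701 and 799 by limma with pseudocounts of 1 and 0.5, and 5982 without a threshold. The 2856 at 6 days became 1307 and 1398 by limma and 6702 without a threshold, and the 2252 of the difference became 659 and 649 by limma and 183 with a threshold. The median log2 fold change of the import genes at 3 days moved from 0.24 to 0.0446 and 0.0451 by limma, where TPM shifted the median of all genes to -0.15 and -0.16, and to 0.1332 with the implied length. Equally numbered libraries of DMSO and DOX did not deviate together, with correlations from -0.29 to 0.18, so the numbers were not used as pairs. With the replicate block 5 import genes were called higher at 3 days, 1 higher at 6 days and 11 lower in the difference. The shares of all tested genes with the block were 4.97% higher at 3 days, 9.70% higher at 6 days and 7.56% lower in the difference. For the gene pairs 0 passed after adjustment on TPM or CPM ratios, where no ratio could pass by itself. Sign flips of 4 pairs cannot give a p under 0.125 and 3 against 4 libraries cannot give one under 0.0571, so the block and leaving out a library could not be tested there. The cause of these changes was not tested.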
